A study of Mus musculus with 2 samples.

Results

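MHC class I presentation was followed through 10 genes: the heavy chains H2-K1 and H2-D1, the light chain B2m, the peptide transporter subunits Tap1 and Tap2, the loading bridge Tapbp, the immunoproteasome subunits Psmb8, Psmb9 and Psmb10, and the transactivator Nlrc5. They were taken by symbol, each matched 1 row, and they are 10 of the 32285 genes in the count matrices. The 2 libraries are droplet single-cell RNA-seq of MC38-OVA tumours, that is, tumours of a mouse colon carcinoma cell line to which ovalbumin was added as an antigen. Both come from mice labelled wild type and from cells enriched for CD45 by magnetic sorting. The mice of 1 library ate a control diet, and those of the other a diet with sitagliptin, an inhibitor of the peptidase DPP4. The labels name neither strain, age, sex, dose and duration of the diet nor the number of mice per library. Each diet has 1 library, so the diet cannot be told apart from any other difference between these libraries. All intervals are 95% intervals that cover counting error only, and no test was run.

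MHC class I molecules show peptides from inside the cell to CD8 T cells. The proteasome cuts proteins into peptides, TAP carries them into the endoplasmic reticulum, and tapasin holds empty class I molecules at TAP until a peptide binds. Interferon gamma is the classic inducer of the pathway: it acts in part through IRF1, exchanges the constitutive proteasome subunits for the immunoproteasome subunits, and raises NLRC5, which acts on the promoters of class I genes. Dendritic cells use the pathway to prime CD8 T cells, macrophages and monocytes in tumours express it strongly, and tumour cells need it to be recognised.

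The promoters of the genes that make up the class I molecule itself are shown because H2-K1, H2-D1 and B2m had ratios below 1 together in all 6 broad classes. These classes are described below, and B2m in monocytes and NK cells crossed 1 under some other settings. Tap1, Tap2, Psmb8, Psmb9 and Psmb10 were also below 1 in all 6, so this trait is not particular to the class I chains. The sequences are the 210 bases before the start site from the RefSeq promoter table (build GRCm38.p6), 5′ to 3′ on the strand of the gene. The authors' build was not given in the sources used here. Capitals mark matches, on either strand, to the interferon-stimulated response element (ISRE core, or GAANNGAAA, which is 1 base shorter), the NF-kB core and the CRE core (TGACG). H2-K1 lies at chr17:34000348-34000557 on the minus strand, H2-D1 at chr17:35262884-35263093 on the plus strand and B2m at chr2:122147477-122147686 on the plus strand.
H2-K1: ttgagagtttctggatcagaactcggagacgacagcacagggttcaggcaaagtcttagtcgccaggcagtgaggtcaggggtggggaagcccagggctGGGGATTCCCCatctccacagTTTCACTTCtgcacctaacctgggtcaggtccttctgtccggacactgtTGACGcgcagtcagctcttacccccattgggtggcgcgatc
H2-D1: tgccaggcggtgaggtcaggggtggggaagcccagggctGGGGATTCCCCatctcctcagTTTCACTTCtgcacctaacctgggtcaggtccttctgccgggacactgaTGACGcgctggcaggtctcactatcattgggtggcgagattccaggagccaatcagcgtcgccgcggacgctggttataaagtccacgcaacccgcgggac
B2m: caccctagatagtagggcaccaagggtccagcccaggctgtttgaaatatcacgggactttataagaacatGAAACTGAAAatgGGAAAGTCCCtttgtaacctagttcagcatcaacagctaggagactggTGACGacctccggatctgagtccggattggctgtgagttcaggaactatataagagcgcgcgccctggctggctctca

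The H2-K1 and H2-D1 promoters hold the same arrangement: an NF-kB match, then the shorter interferon element on the opposite strand, then a CRE core. Their longest identical run is 47 bases, starting 141 bases before the H2-K1 start site and 201 bases before that of H2-D1. RefSeq lists 2 start sites for H2-K1, 14 bases apart, and the first listed was used. The B2m promoter holds the longer interferon element, GAAACTGAAA, 139 bases before the start site, followed by an NF-kB match. Windows of 300 bases, including 50 bases after the start site, were found for 8 of the 10 genes. The NF-kB letters occurred in 3 of the 8 windows (6.75% of 27025 genes), the shorter interferon element in 2 (8.68%), the longer in 1 (3.99%) and the CRE core in 5 (23.05%). GAS, the interferon gamma-activated site (TTCNNNGAA), occurred in 1 window, that of Psmb8 (9.55% of genes). None of the sequences shown holds a GAS match. A window with both an NF-kB match and the shorter interferon element was found for 0.400% of genes. The shorter element was added to the search after the data were seen, and among the members only H2-K1 and H2-D1 hold it. This share is therefore a description and no support for a role of the pair. CCAAT occurred in 6 of the 8 windows (41.1% of genes). The windows of Psmb8 and Psmb10 held no NF-kB, CRE or CCAAT match and neither form of the ISRE. The 8 windows are not separate promoters: those of Psmb9 and Tap1 overlap, and those of H2-K1 and H2-D1 are alike. The Psmb9 and Tap1 windows share 1 CRE site and 1 CCAAT site, each counted for both genes. These matches are descriptions of letters, and no binding was measured.

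Psmb9 and Tap1 are neighbours on chromosome 17 and are read from a shared promoter in opposite directions. Their windows overlap by 275 of 300 bases. The 225 bases between the RefSeq start sites, chr17:34187331-34187555 on the plus strand (the strand of Tap1), are shown because these genes had the lowest ratios of all members in the Ptprc-low cells described below. The interval of Tap1 there overlapped that of Psmb8, whose promoter is not shown, and in macrophages H2-D1 had the lowest ratio. A part of the shared promoter in these ratios was not tested. The only capitals are a CRE core, and CCAAT also occurs once near the left end.
Psmb9-Tap1: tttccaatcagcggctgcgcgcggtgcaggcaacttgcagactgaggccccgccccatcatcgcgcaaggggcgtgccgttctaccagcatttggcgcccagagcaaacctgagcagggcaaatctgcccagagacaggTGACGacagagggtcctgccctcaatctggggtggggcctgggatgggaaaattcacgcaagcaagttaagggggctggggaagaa

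Cells were classed by UMIs of marker genes, none of which is a member. The control and sitagliptin libraries held 8694 and 9766 barcodes, with medians of 5074 and 5158.5 UMIs, and 5082 and 5838 barcodes entered a class. Ptprc-low cells numbered 1251 and 738, macrophages 2849 and 3486, monocytes 585 and 942, dendritic cells 119 and 180, T cells 198 and 363, and NK cells 80 and 129. Clusters of low-UMI mixtures (19.3% and 21.9% of kept barcodes) were left out. Other barcodes that the marker rules placed in no class (18.5% and 14.5%) were left out too, and 132 barcode sequences occur in both libraries. Ptprc-low cells were sought as tumour cells, but epithelial markers did not mark them. The 10 epithelial markers together had 1.01 and 0.946 CPM in them, Ptprc (CD45) 10.5 and 11.97 CPM, and 6 fibroblast markers 311 and 377 CPM. Among these 6, Dcn had 181 and 221 CPM, Col3a1 66.7 and 92.6 CPM, Col1a2 43.7 and 46.4 CPM and Pdgfra 18.0 and 15.4 CPM. Col1a1 had 2.03 and 2.30 CPM, and Lum had 0 in both libraries. The Ptprc-low cells are called here by their low Ptprc, and were chosen by 10 leading genes such as Cald1, Hmga2 and Sparc that were picked after the data were seen. Macrophage markers were at 0.881% and 1.21% of the macrophages' level in Ptprc-low cells and at 1.10% to 1.69% in T and NK cells. In dendritic cells they were at 8.43% and 7.02%. The class rules shape this contrast. Ptprc-low, T and NK barcodes had to lie below the marker minimum for macrophages, whereas dendritic barcodes were limited only in C1q markers. In dendritic cells Lyz2 had 802 and 526 CPM. C1q markers had 68.5 and 67.6 CPM there, against 6555 and 5131 CPM in macrophages. The part of macrophage RNA in the dendritic cell values was not tested.

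All 10 genes were read in every class, and their orders of classes differed. Levels are UMIs summed over a class and scaled to CPM, the UMIs of a gene per 1000000 UMIs of the class, given as control and then sitagliptin. They are not corrected for length, so levels of different genes are not compared. Highest and lowest refer to the mean of both libraries, and single libraries can differ in order. Psmb9, the beta1i subunit of the immunoproteasome, had the widest span, 9.59-fold between the highest and the lowest class. It was highest in cross-presenting cDC1 (868 and 720.1 CPM), then in mature migratory dendritic cells (732 and 509.5 CPM), and lowest in Ptprc-low cells (106 and 59.6 CPM). The values of the libraries overlapped between cDC1 and mature dendritic cells, and cDC1 are 10 and 20 cells. Psmb8, the beta5i subunit, spanned 6.66-fold, from 1372 and 979.5 CPM in cDC1, which in the sitagliptin library lay below mature dendritic cells (1011 CPM), to 216 and 137 CPM in Ptprc-low cells. Tap1 (5.81-fold) and Tap2 (5.38-fold), the subunits of the peptide pump, also ran from cDC1 to Ptprc-low cells by this mean. In the control library, however, Tap2 was highest in mature dendritic cells (148 CPM against 141 in cDC1). Tap1 was lowest there in plasmacytoid cells (50.2 CPM, on 2 UMIs). Tap2 in cDC1 rests on 7 and 19 UMIs.

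The chains of the class I molecule had smaller spans than these 4 genes. H2-D1 spanned 1.83-fold, from 2351 and 1731 CPM in mature dendritic cells to 1271 and 961 CPM in Ptprc-low cells. B2m spanned 2.40-fold, from 4802 and 4202 CPM in mature dendritic cells to 1816 and 1933 CPM in cDC1. H2-K1 spanned 3.09-fold and had another order. It was highest in T cells without a Cd8a or Cd8b1 UMI, called other T cells (1325 and 1128 CPM). Mature dendritic cells (1191 and 951 CPM) and plasmacytoid cells (1155 and 977 CPM) followed, and changed places in the sitagliptin library. H2-K1 was lowest in cDC1 (444 and 350.3 CPM). Other T cells can include CD8 T cells whose Cd8a and Cd8b1 RNA was missed. NK cell markers were at 490 and 407 CPM in them, against 173 and 138 CPM in CD8 T cells. H2-K1 made up 45.6% and 46.7% of the UMIs of H2-K1 and H2-D1 in T cells and 42.5% and 43.7% in NK cells, against 31.1% and 32.4% in macrophages and 31.3% and 31.9% in Ptprc-low cells. Both kinds of lymphocyte were thus above macrophages and Ptprc-low cells in this share in both libraries. H2-K1 and H2-D1 are near-identical to each other and to H2-Q genes over long stretches, so how reads were divided between them is uncertain.

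Tapbp encodes tapasin and spanned 2.53-fold, from 248 and 252 CPM in mature dendritic cells to 116 and 81.7 CPM in Ptprc-low cells. Psmb10, the beta2i subunit, spanned 2.47-fold and was highest in monocytes (243 and 189 CPM) by the mean, though mature dendritic cells were above them in the control library (248 CPM) and cDC1 in the sitagliptin library (208 CPM). Nlrc5, the transactivator, followed none of these orders. Its highest values by the mean were in cDC2 (153 and 77.0 CPM), mature dendritic cells (108 and 115 CPM) and CD8 T cells (102 and 121 CPM). Plasmacytoid cells came next to cDC2 in the control library (151 CPM), but these are 13 cells, with under 20 Nlrc5 UMIs in plasmacytoid cells over both libraries. With sitagliptin cDC2 lay below monocytes (93.6 CPM) and other T cells (105 CPM), and neighbours among these classes overlapped between libraries. Nlrc5 was lower in macrophages (36.6 and 39.99 CPM) than in Ptprc-low cells (62.5 and 55.3 CPM), where every other member was lower than in macrophages. Each neighbouring pair of classes in the order of H2-D1 or of Psmb10 overlapped between libraries, so neighbours in those orders were not set apart.

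**Figure D1:**
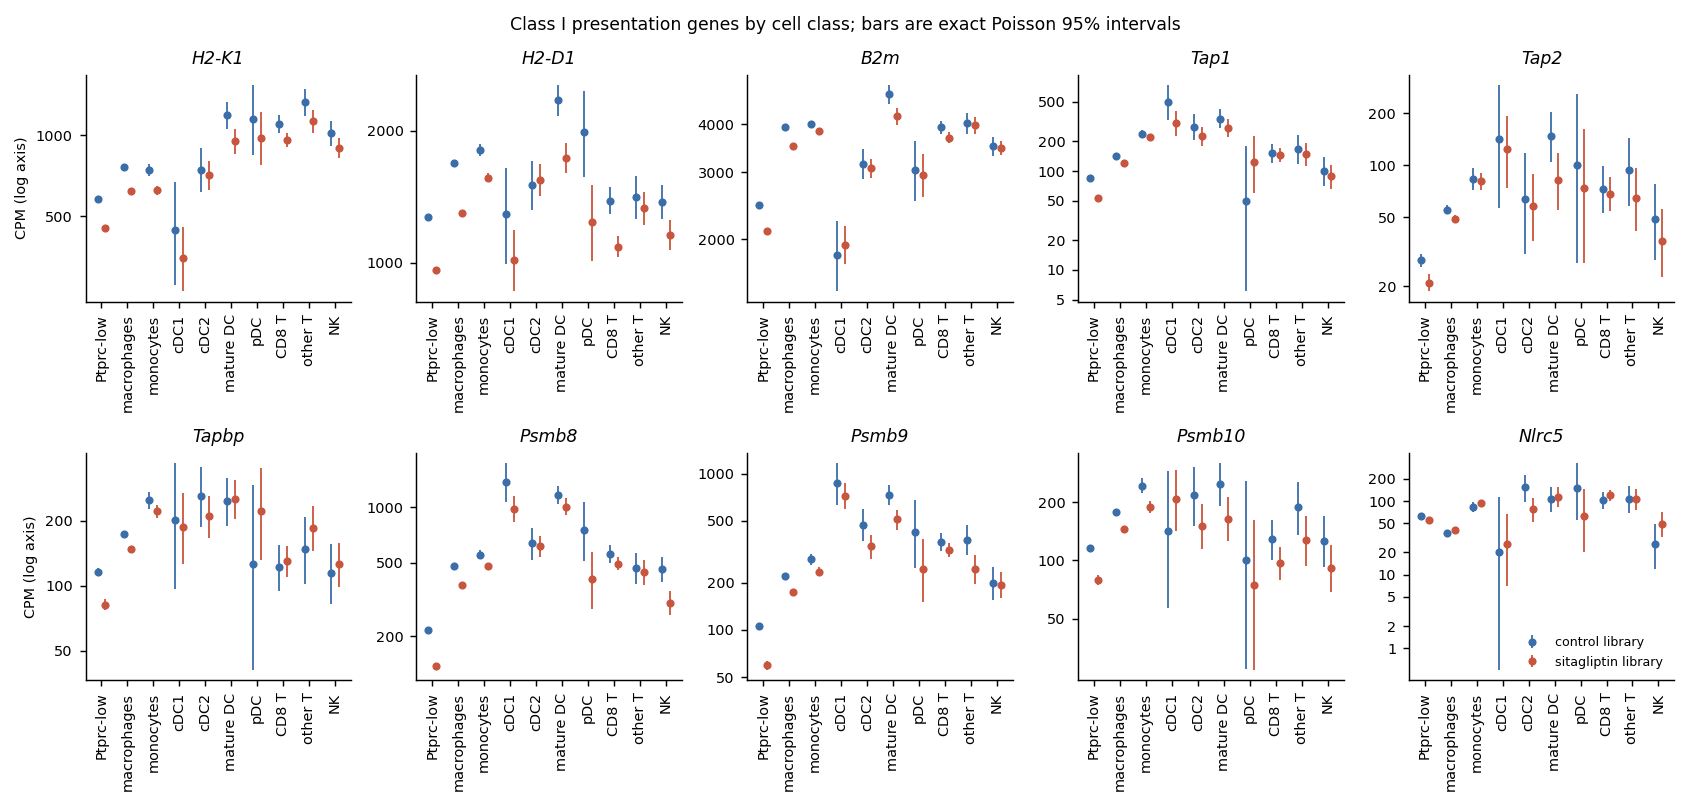
CPM on a log axis (vertical) of each gene in 10 cell classes (horizontal), with the control library in blue, the sitagliptin library in red and exact Poisson 95% intervals as bars. Psmb9 runs from 868 and 720.1 CPM in cDC1 to 106 and 59.6 CPM in Ptprc-low cells, and Nlrc5 alone lies higher in Ptprc-low cells than in macrophages.

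Against macrophages, mature migratory dendritic cells, which carry antigen to lymph nodes, were higher for 10 of 10 genes in both libraries, with median folds of 1.97 and 1.69. Psmb9 there was at 3.31 and 2.90 times and Tap2 at 2.67 and 1.67 times its level in macrophages. Monocytes were above macrophages for 9 of 10 genes in both libraries (median folds 1.32 and 1.32), with Tap1 at 1.66 and 1.83 and Nlrc5 at 2.30 and 2.34 times the macrophage level. Ptprc-low cells were below macrophages for 9 of 10 (0.637 and 0.547). NK cells were below for 7 of 10 (0.851 and 0.872), with H2-K1 as the gene that was above in both libraries (1.34 and 1.45).

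The immunoproteasome subunits were also set beside the constitutive subunits they replace: Psmb8 with Psmb5, Psmb9 with Psmb6 and Psmb10 with Psmb7. UMIs are not corrected for capture or length, so a share is compared between classes and is not a ratio of proteins. Psmb8 took 50.6% (49.5 to 51.7) in the control library and 41.2% (39.8 to 42.6) in the sitagliptin library of the UMIs of its pair in Ptprc-low cells. It took 74.4% and 72.9% in macrophages, 77.1% and 77.4% in monocytes and 90.7% and 90.4% in mature dendritic cells. For Psmb9 the shares were 28.8% and 19.8% in Ptprc-low cells, 47.5% and 45.9% in macrophages, 64.5% and 68.7% in CD8 T cells and 79.2% and 75.6% in mature dendritic cells. For Psmb10 they were 53.5% and 42.6% in Ptprc-low cells, 68.8% and 64.2% in macrophages and 75.5% and 73.4% in monocytes. In Ptprc-low cells the intervals of the 2 libraries did not overlap for any of the 3 pairs, and the sitagliptin library was lower. In macrophages the intervals did not overlap for Psmb8 and Psmb10, both lower with sitagliptin, and overlapped for Psmb9.

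**Figure D2:**
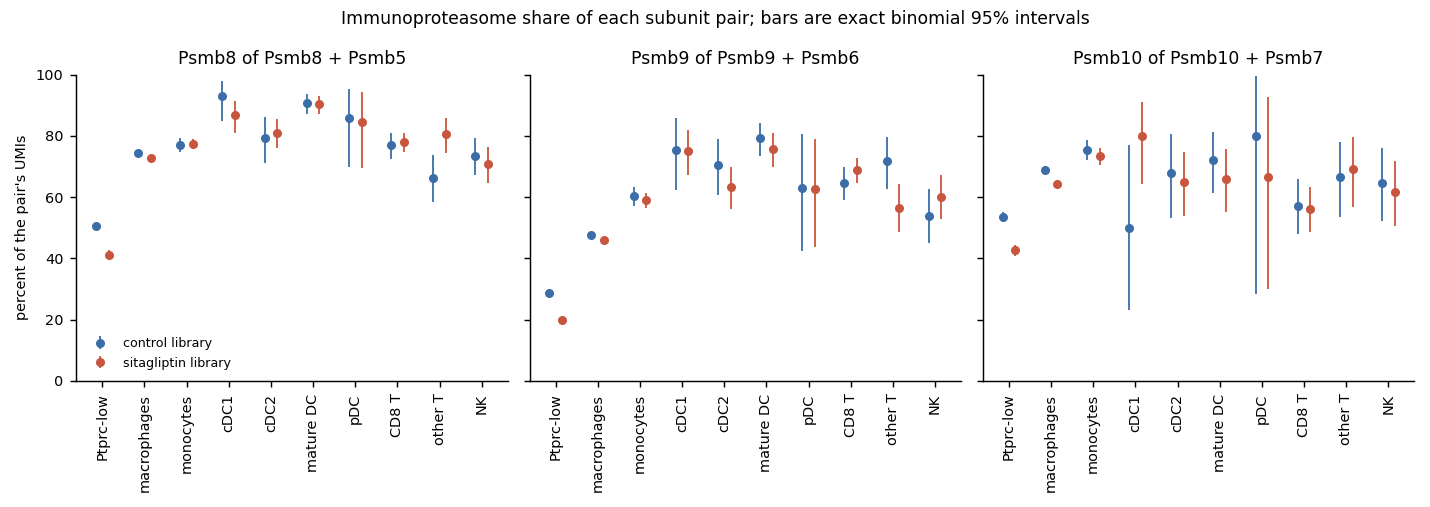
Percent of a pair's UMIs that belong to the immunoproteasome subunit (vertical, 0 to 100) in 10 cell classes (horizontal), control in blue, sitagliptin in red, with exact binomial 95% intervals. Ptprc-low cells are lowest for Psmb8 and Psmb9, and lower in the sitagliptin library for all 3 pairs.

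The median ratio of the 10 class I genes was below 1 in all 6 broad classes and lowest in Ptprc-low cells. For NK cells the counting error of that median covers 1. H2-K1, H2-D1, B2m, Tap1, Tap2, Psmb8, Psmb9 and Psmb10 had ratios below 1 in all 6, but under some other settings B2m and Tap2 in monocytes, Tap1 in T cells, and B2m, Tap1 and Psmb9 in NK cells crossed 1. Nlrc5 was above 1 in 4 classes and Tapbp in 2. Ratios are CPM with sitagliptin over CPM with control, and a gene is called when the ratio is at most 0.8 or at least the inverse of 0.8 and it has at least 20 UMIs over both libraries. In Ptprc-low cells 10 of 10 genes were below 1 (54.6% of all 12859 genes tested) and 8 were called lower (11.2% of all genes). In dendritic cells 10 of 10 were below 1 (54.0%) and 7 were called lower (25.3%). In macrophages 9 of 10 were below 1 (59.7%) and 3 were called lower (12.5%). In monocytes 9 were below 1 (60.4%) and 1 was called lower (21.2%). In T cells 8 were below 1 (56.6%) and 1 was called lower (24.9%). In NK cells 8 were below 1 (51.0%), 3 were called lower (23.6%) and 1 was called higher (23.2%). In the other 5 classes 0 members were called higher, where 10.4% (Ptprc-low cells), 20.3% (dendritic cells), 11.8% (monocytes), 10.1% (macrophages) and 17.4% (T cells) of all genes were. The called counts in monocytes and T cells are thus no larger than the background share, and that in NK cells is near it.

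The median log2 ratio of the 10 genes was -0.47 in Ptprc-low cells, -0.36 in dendritic cells, -0.26 in macrophages, -0.19 in monocytes, -0.19 in NK cells and -0.18 in T cells. The median of all genes tested was -0.02, -0.05, -0.06, -0.07, -0.02 and -0.07 in the same order. Over genes with at least 1000 UMIs, the medians were -0.02, -0.03, -0.06, -0.06, -0.16 and -0.13. In T and NK cells, abundant genes as a whole were thus close to the class I genes. The median of the 10 genes stayed between -0.54 and -0.41 in Ptprc-low cells and between -0.27 and -0.21 in macrophages over all other settings tried.

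**Figure D3:**
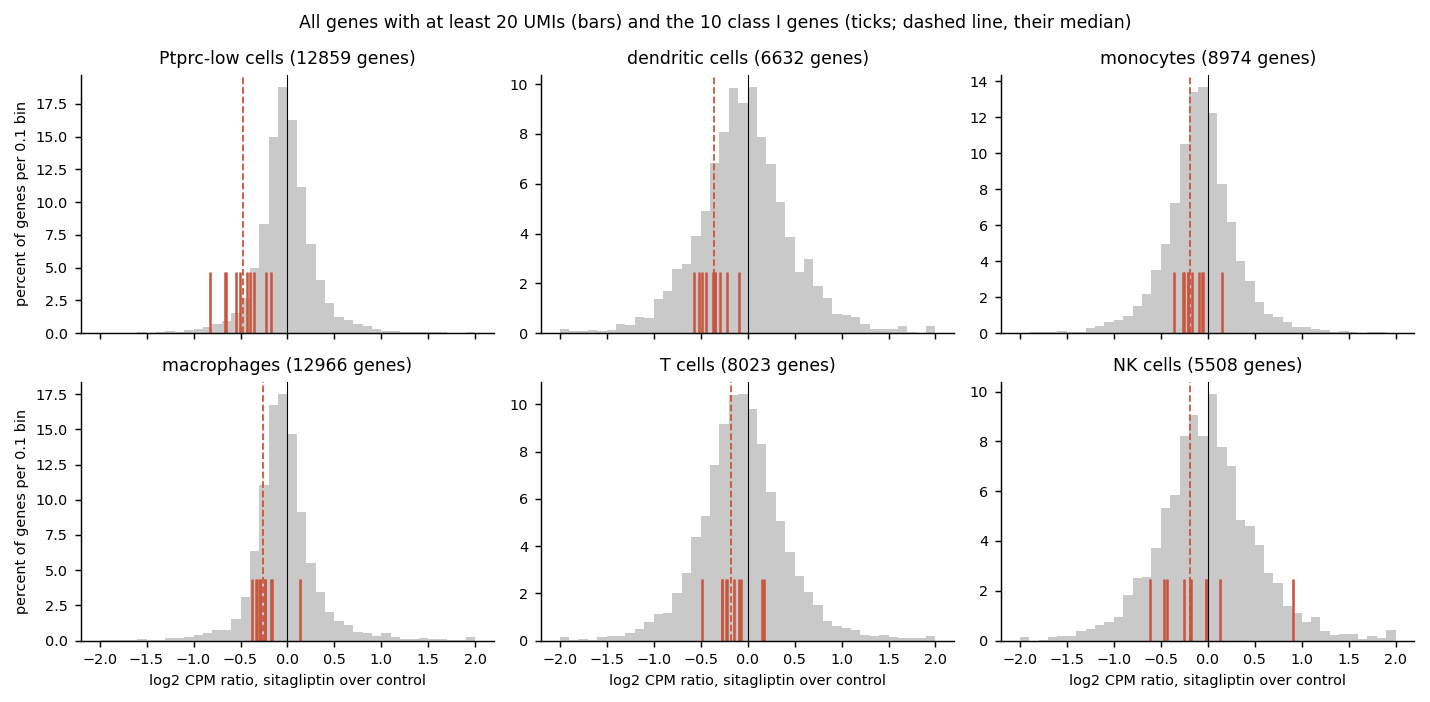
Percent of all genes with at least 20 UMIs in each 0.1 bin (vertical, grey bars) of the log2 CPM ratio, sitagliptin over control (horizontal, values beyond 2 placed in the end bins), with the 10 class I genes as red ticks and their median as a dashed line, in 6 cell classes. The ticks lie left of the centre in Ptprc-low cells (median -0.47 against -0.02 for all genes) and within the bulk in T cells (-0.18 against -0.07).

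In Ptprc-low cells the immunoproteasome subunits and Tap1 were lower by more than the class I chains. Psmb9 had 106 CPM with the control diet against 59.6 CPM with sitagliptin, a ratio of 0.563 (95% interval 0.520 to 0.610). Tap1, which shares its promoter, had 85.4 CPM with the control diet against 53.9 CPM with sitagliptin, a ratio of 0.631 (95% interval 0.579 to 0.687). Psmb8 had 216 CPM with the control diet against 137 CPM with sitagliptin, a ratio of 0.636 (95% interval 0.603 to 0.671). These 3 had the lowest ratios of the 10, and their intervals lie below those of the class I chains. In what follows, the ratio stands in parentheses with its 95% interval after it. Psmb10 had 116 and 78.9 CPM (ratio 0.683, 0.636 to 0.734), Tapbp 116 and 81.7 CPM (0.703, 0.655 to 0.755) and Tap2 28.2 and 21.0 CPM (0.743, 0.643 to 0.856). The heavy chain H2-D1 had 1271 and 961 CPM (0.756, 0.741 to 0.772), H2-K1 579 and 451 CPM (0.779, 0.755 to 0.803) and B2m 2465 and 2101 CPM (0.852, 0.840 to 0.865). Nlrc5 was closest to 1, with 62.5 and 55.3 CPM (0.884, 0.808 to 0.968), and with every cell thinned to 2000 UMIs its ratio was 1.16.

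Ptprc-low cells lay mainly in 2 clusters, were deeper in the sitagliptin library (median 19236.5 UMIs against 14475) and fewer. The median log2 ratio was -0.47 when clusters were mixed equally and -0.47 when 4 depth bins were mixed equally. Cells thinned to 2000 UMIs gave -0.41. The part of cluster mix and depth in the difference was not tested. After thinning, 17.1% and 10.3% of Ptprc-low cells had a Psmb9 UMI in the control and sitagliptin libraries, 31.7% and 21.1% a Psmb8 UMI and 14.0% and 9.76% a Tap1 UMI. Without thinning the shares were 56.4% and 48.0% for Psmb9, 76.0% and 70.3% for Psmb8 and 52.5% and 46.6% for Tap1. For the abundant B2m the thinned shares were 96.1% and 95.7%, so nearly every cell of both libraries had a B2m UMI. No class here lacks class I genes, so a share due to free RNA could not be read from one.

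In macrophages the heavy chains and the immunoproteasome subunits had ratios of 0.770 to 0.818, and B2m was closer to 1. H2-D1 had 1686 CPM with the control diet against 1298 CPM with sitagliptin, a ratio of 0.770 (95% interval 0.759 to 0.781), the lowest of the 10. Psmb8 had 479 and 379 CPM (0.791, 0.770 to 0.813) and Psmb9 221 and 176 CPM (0.796, 0.765 to 0.829), and with H2-D1 they are the 3 called genes. Just outside the threshold lay H2-K1 with 763 and 621 CPM (0.814, 0.797 to 0.832) and Psmb10 with 178 and 146 CPM (0.818, 0.782 to 0.855). The loading genes differed less: Tapbp had a ratio of 0.847 (0.810 to 0.886), Tap1 0.850 (0.809 to 0.894) and Tap2 0.888 (0.820 to 0.961). B2m had 3937 and 3502 CPM (0.890, 0.881 to 0.898). Nlrc5 was the gene above 1, with 36.6 and 39.99 CPM (1.09, 0.996 to 1.202), an interval that holds 1. Macrophages were deeper with sitagliptin (median 7694.5 UMIs against 6107), and with 4 depth bins mixed equally the median log2 ratio of the 10 genes was -0.27.

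**Figure D4:**
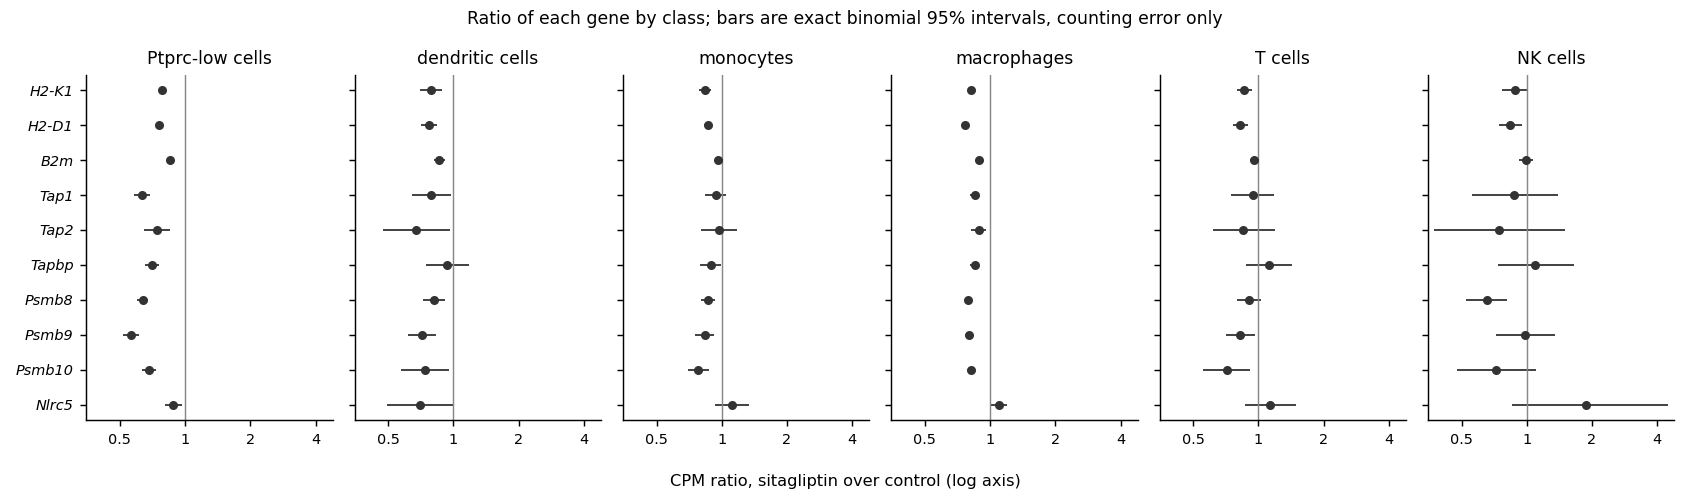
CPM ratio, sitagliptin over control, on a log axis (horizontal) for each gene (vertical) in 6 cell classes, with exact binomial 95% intervals as bars and a line at 1. All 10 intervals lie below 1 in Ptprc-low cells and 9 in macrophages, and Nlrc5 lies right of 1 in monocytes, macrophages, T cells and NK cells.

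Macrophages were also read in 8 overlapping programs, and the count of genes called lower stood above the background share in resident-like and cycling macrophages and near or below it in the other 6. Programs were called by marker UMIs after thinning, each at the lowest number of UMIs reached by at most 15% of the 6335 macrophages. Of these macrophages 1936 carried no program, 2786 carried 1 and the others 2 to 4, and 655 of the 948 resident-like macrophages had just the 1 UMI needed. H2-K1, H2-D1, Psmb8, Psmb9 and Psmb10 were below 1 in all 8 programs. Resident-like macrophages, marked by Fcrls, Cbr2, Folr2 and Lyve1, had the lowest median log2 ratio (-0.38), with 10 of 10 below 1 (57.2% of all genes) and 7 called lower (18.4%). H2-D1 there had 1818 and 1262 CPM (0.694, 0.670 to 0.720) and Tap1 130.4 and 91.3 CPM (0.700, 0.611 to 0.801). Other markers moved with this program: C1q markers were at 9523 and 6859 CPM in the control and sitagliptin libraries, monocyte markers at 32.3 and 76.1 CPM and leading genes of Ptprc-low cells at 56.9 and 37.0 CPM. Their part in the result was not tested. Cycling macrophages followed with -0.31, 9 below 1 (56.9%), 4 called lower (17.3%) and Nlrc5 called higher (12.6%), though Nlrc5 was at 0.807 when cells were thinned. Psmb9 in cycling macrophages had 292 and 206 CPM (0.706, 0.649 to 0.768).

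Class II high macrophages, marked by H2-Aa, H2-Ab1, H2-Eb1 and Cd74, lay at the other end. Their median was -0.12, 8 of 10 were below 1 (58.1% of all genes) and 0 were called lower (17.8%). Inflammatory macrophages had -0.19, with 8 below 1 (57.6%), 0 called lower (18.7%) and Nlrc5 called higher (12.3%). Macrophages with Retnla, Ear2 and Lyz1 had -0.15, with 8 below 1 (54.6%), Psmb8 called lower (24.3%) and Nlrc5 called higher (19.8%). The half-width of that median from counting error was 0.24, so its interval holds 0. Psmb8 in class II high macrophages had 594 and 564 CPM (0.950, 0.892 to 1.01). The difference between programs was not tested. Class II high macrophages were also higher in class I genes than other macrophages, 10 of 10 in both libraries, with median folds of 1.30 and 1.46. The same held for macrophages with Cxcl9 and Vcam1 (1.34 and 1.49) and for interferon-responding macrophages (1.22 and 1.38), in which Psmb9 was 1.38 and 1.38 times and Tap1 1.60 and 1.80 times its level in other macrophages. Lipid-associated macrophages, with Gpnmb, Trem2 and Spp1, were lower for 8 of 10 (0.751 and 0.772). B2m and Tap2 had ratios of 1.03 (0.9999 to 1.06) and 1.06 (0.835 to 1.36) between diets in interferon-responding macrophages, against 0.801 (0.765 to 0.838) for H2-D1 there. In lipid-associated macrophages 9 were below 1 (58.5%) and 2 were called lower (18.8%). In interferon-responding macrophages 7 were below 1 (59.4%) and 2 were called lower (23.2%), and in those with Cxcl9 and Vcam1 8 were below 1 (59.0%) and 1 was called lower (18.3%). In 7 of 8 programs Nlrc5 had a ratio above 1, which after thinning was below 1 in the cycling (0.807) and the Retnla, Ear2 and Lyz1 (0.861) programs. In resident-like macrophages it was 0.839 (0.665 to 1.06).

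**Figure D5:**
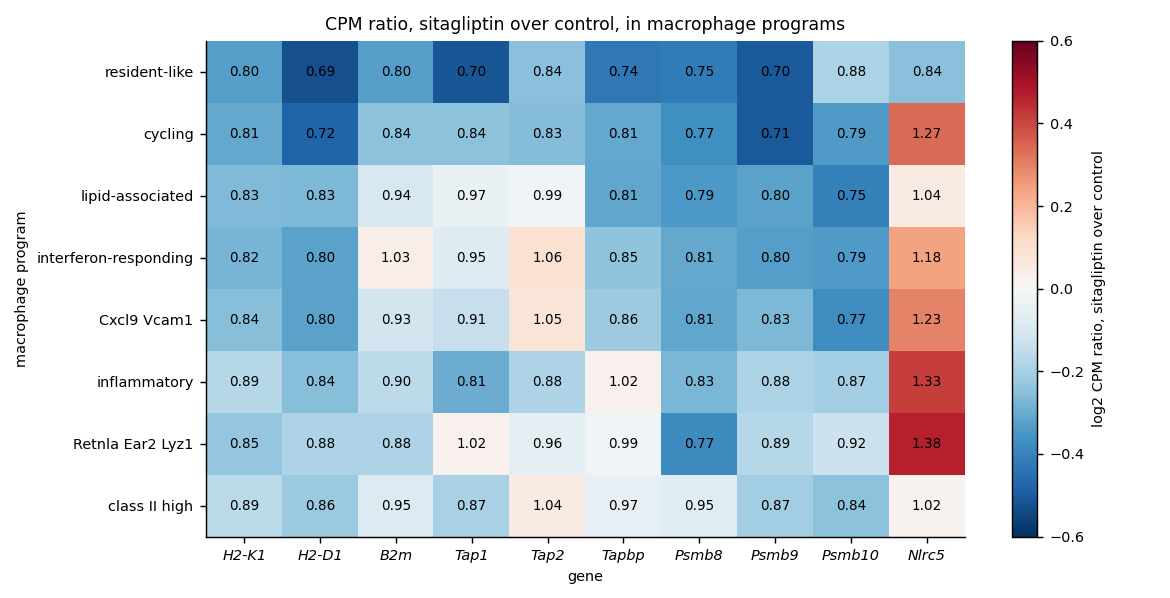
CPM ratio, sitagliptin over control, printed and coloured on a log2 scale for 10 genes (horizontal) in 8 macrophage programs (vertical), blue below 1 and red above 1. Resident-like macrophages are blue for all 10 genes, and Nlrc5 is red in the other 7 programs, up to 1.38.

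Dendritic cells had a median of -0.36, and with the same mix of subsets in both libraries it was -0.32. Mature migratory cells were 51.3% of control and 39.4% of sitagliptin dendritic cells. Psmb9 in all dendritic cells had 639 CPM with the control diet against 457 CPM with sitagliptin, a ratio of 0.715 (95% interval 0.618 to 0.828). Tap2 had 117 and 78.8 CPM (0.675, 0.474 to 0.965) and H2-D1 1948 and 1505 CPM (0.772, 0.712 to 0.839). Tapbp was closest to 1 (0.939, 0.747 to 1.18), and was above 1 when each cell was weighted equally (1.04) or the marker minimum was raised (1.08). Within mature dendritic cells 8 of 10 genes were below 1 (55.7% of all genes) and 5 were called lower (29.1%), with H2-D1 at 2351 and 1731 CPM (0.736, 0.657 to 0.825) and Psmb9 at 732 and 509.5 CPM (0.696, 0.565 to 0.859). Macrophage markers in mature dendritic cells were at 6.63% and 2.70% of the macrophages' level in the control and sitagliptin libraries, Lyz2 at 612 and 129 CPM and monocyte markers at 344 and 74.0 CPM. C1q markers were at 52.0 and 63.0 CPM. Their part in these ratios was not tested. In cDC2, 9 of 10 were below 1 (52.5%) and 3 were called lower (27.5%). H2-D1 and B2m were close to 1 there (1.03, 0.881 to 1.199 and 0.973, 0.875 to 1.08), and Nlrc5 was lowest (153 and 77.0 CPM, 0.503, 0.283 to 0.903). In cDC1 and plasmacytoid cells, with at most 24 cells per library, intervals were wide and several ratios crossed 1 with the way cells were classed. In cDC1 7 of 9 were below 1 (48.7% of all genes), 4 called lower (28.2%) and 1 higher (31.6%). In plasmacytoid cells 5 of 6 were below 1 (50.4%), 3 called lower (28.5%) and 1 higher (28.3%). Nlrc5 in cDC1, and Tap1, Tap2, Psmb10 and Nlrc5 in plasmacytoid cells, had under 20 UMIs and were not counted.

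Monocytes, the blood-derived precursors of tumour macrophages, had lower H2-K1 (745 and 625 CPM, 0.838, 0.787 to 0.894), H2-D1 (1805 and 1564 CPM, 0.866, 0.832 to 0.902) and Psmb10 (243 and 189 CPM, 0.779, 0.695 to 0.873). Tap1 (0.937, 0.839 to 1.05) and Tap2 (0.968, 0.803 to 1.17) had intervals that hold 1. In T cells 5 of 10 intervals lay below 1, those of H2-K1 (0.862, 0.793 to 0.937), H2-D1 (0.825, 0.764 to 0.891), B2m (0.953, 0.912 to 0.996), Psmb9 (0.825, 0.710 to 0.960) and Psmb10 (0.714, 0.557 to 0.918). Tapbp and Nlrc5 were above 1 with intervals that hold it. CD8 T cells (139 and 263) and other T cells (59 and 100) had medians of -0.13 and -0.12. Their half-widths from counting error were 0.30 and 0.32, so both intervals hold 0. In CD8 T cells 8 of 10 were below 1 (56.5% of all genes) and 2 were called lower (26.5%). In other T cells 9 were below 1 (51.3%), 3 were called lower (27.6%) and 1, Tapbp, was called higher (26.2%). In NK cells, lymphocytes that respond to missing class I on other cells, intervals below 1 were those of H2-D1 (0.840, 0.745 to 0.946) and Psmb8 (463 and 303 CPM, 0.653, 0.524 to 0.814). B2m in NK cells was near equal (3507 and 3472 CPM, 0.990, 0.922 to 1.06). Nlrc5 rests on 9 and 28 UMIs there, with a ratio of 1.87 (0.858 to 4.50).

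The wider pathway was read from 62 further genes, of which 60 were found in the matrices. In macrophages 57 were tested, 45 had a ratio below 1 (59.7% of all genes), 5 were called lower (12.5%) and 1 higher (10.1%), and their median log2 ratio was -0.14, against -0.26 for the 10 class I genes and -0.06 for all genes. Among those called lower were Socs1, an inhibitor of cytokine signalling (0.768, 0.706 to 0.835), and the non-classical class I genes H2-Q7 (0.738, 0.686 to 0.794), H2-T22 (0.764, 0.710 to 0.823) and H2-T24 (0.758, 0.593 to 0.972). Among the other class I heavy chains, 9 of 11 tested were below 1 in macrophages and 9 of 10 in Ptprc-low cells. In dendritic cells 7 of 8 were below 1, in monocytes 8 of 10 and in T cells 4 of 6, but in NK cells only 1 of 6. In Ptprc-low cells 55 were tested and 39 were below 1 (54.6% of all genes), with a median of -0.10, 8 called lower (11.2%) and 1, Nfkb1, called higher (10.4%). H2-T23, which gives the Qa-1 molecule, had a ratio of 0.632 (0.544 to 0.733), H2-Q4 0.709 (0.632 to 0.794), and the trimming peptidase Erap1 0.827 (0.753 to 0.907). Irf1, the interferon gamma factor upstream of class I genes, had ratios of 0.808 (0.778 to 0.838) in Ptprc-low cells, 0.910 (0.882 to 0.938) in macrophages, 0.985 (0.872 to 1.12) in dendritic cells and 1.39 (1.04 to 1.86) in NK cells.

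In dendritic cells 32 of 52 tested were below 1 (54.0% of all genes), with 9 called lower (25.3%) and 9 higher (20.3%). In monocytes 44 of 56 were below 1 (60.4%), with 5 called lower (21.2%) and 5 higher (11.8%). In T cells 30 of 49 were below 1 (56.6%), with 8 called lower (24.9%) and 2 higher (17.4%). In NK cells 24 of 46 were below 1 (51.0%), with 11 called lower (23.6%) and 9 higher (23.2%). The counts called lower were thus a smaller share than in all genes in macrophages, dendritic cells, monocytes and T cells, and close to it in NK cells. Of 6 genes of cross-presentation, 3 were called higher (20.3% of all genes) and 1 lower (25.3%) in dendritic cells. They were the WDFY4 adaptor gene Wdfy4, which cDC1 need for cross-presentation (82.6 and 137 CPM, 1.66, 1.16 to 2.42), Rab43 (1.72, 1.18 to 2.57) and Sec61a1, on 10 and 35 UMIs and with an interval that holds 1 (1.78, 0.862 to 4.03), and Cybb was lower (0.741, 0.605 to 0.909). These names were chosen after their values were seen, and cDC1 were 8.40% of control and 11.1% of sitagliptin dendritic cells.

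The subunits of the PA28 proteasome activator, Psme1 and Psme2, had ratios on opposite sides of 1. Psme2 had ratios below 1 in all 6 classes, from 0.726 in Ptprc-low cells to 0.860 in macrophages. Psme1 had 367 CPM with the control diet against 477 CPM with sitagliptin, a ratio of 1.30 (95% interval 1.26 to 1.34) in macrophages, ratios of 1.28 to 1.65 in monocytes, dendritic cells, T cells and NK cells, and 1.01 (0.968 to 1.05) in Ptprc-low cells. The constitutive subunits differed less than their replacements in Ptprc-low cells: Psmb5 had a ratio of 0.930 (0.886 to 0.976), Psmb6 0.921 (0.882 to 0.962) and Psmb7 1.06 (0.989 to 1.13). In macrophages Psmb5 (0.855, 0.816 to 0.895) and Psmb6 (0.850, 0.819 to 0.883) were lower too, and Psmb7 had a ratio of 1.003 (0.941 to 1.07). The chaperone Calr had ratios of 0.881 (0.852 to 0.911) in macrophages and 1.54 (1.13 to 2.13) in dendritic cells. Rfx5, whose product binds class I and II promoters, was sparse, with ratios of 0.868 (0.670 to 1.13) in macrophages and 1.14 (0.860 to 1.51) in Ptprc-low cells.

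Across 20 points (10 classes in each of 2 libraries), Psmb8 and Psmb9 varied together most closely (Pearson r of log2(CPM + 1) 0.966), followed by Tap2 with Psmb9 (0.924) and Tap2 with Psmb8 (0.913). Psmb9 and Tap1, which share a promoter, had r = 0.756. H2-K1 and B2m had 0.790, and H2-K1 and Tap1 -0.19. With the mean of the 10 genes, r ran from 0.874 (Psmb9) and 0.870 (Psmb8) down to 0.408 (Nlrc5) and 0.370 (H2-K1). Of 5896 other genes, Psme2 was most like that mean (0.896), then Arpc5 (0.882), Jak2 (0.882), N4bp2l1 (0.881), Rel (0.871), Fam129a (0.869), Clec2d (0.869) and Lrrc8c (0.868). By Spearman's rank correlation Psme2 was also first, whereas Rel was 34th and Clec2d 43rd in order. These points share libraries, and small classes have few UMIs, so the values describe likeness of pattern in these data.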

How the data were processed

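Single-cell RNA-seq was measured in 2 libraries, 1 per diet, grouped by the treatment label. The authors deposited raw UMI counts per gene and barcode with gene IDs and symbols, and library preparation used the SeekOne DD 5' kit, per the labels' protocols. The aligner, counting program, genome build and any filter were not given in the sources used here, and the lowest barcode total in both matrices was 2001 UMIs. Total counts were 64139749 (control) and 76788699 (sitagliptin).

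Analysis used Python 3.11.15, scanpy 1.11.5, anndata 0.12.19, numpy 2.4.6, scipy 1.17.1, pandas 2.3.3, scikit-learn 1.9.0, leidenalg 0.10.2, igraph 0.11.9 and matplotlib 3.10.9. Scrublet's automatic threshold marked 0 barcodes, so barcodes in the top 6% of scores were dropped (522 and 586). Leiden clustering (2000 variable genes, 30 components, 15 neighbours, resolution 1.5) gave 24 clusters, and 2 with a median UMI count under 50% of that of all barcodes were left out as low-UMI mixtures. Classes needed marker UMIs: at least 10 per 10000 UMIs for macrophages, monocytes and Ptprc-low cells, at least 2 for T cells, NK cells and cDC1, 3 for cDC2 and plasmacytoid cells and 5 for mature dendritic cells. The cDC2 count was over cDC2 markers together with Flt3, Zbtb46, Dpp4 and Kmo, and had to include a cDC2 marker. Dpp4, the gene of the peptidase that sitagliptin inhibits, thus helped to define cDC2. Barcodes with markers of 2 classes, or of neutrophils, B cells or osteoclasts, were left out, with exceptions. Dendritic barcodes could also meet the macrophage minimum, as long as C1q markers were below 5 per 10000 UMIs. Mature and plasmacytoid cells could carry cDC1 or cDC2 markers, and cDC1 could carry cDC2 markers. Markers of mature dendritic cells did not exclude a barcode from the Ptprc-low cells. These minima were set after the data were seen. The members, marker and pathway lists were chosen with earlier results of these data known, and all 10 members are named in every class.

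UMIs were summed per class and library and scaled to CPM with exact Poisson 95% intervals. Ratios had exact conditional binomial intervals, and shares Clopper-Pearson intervals. Shares of cells with a UMI were taken after thinning cells to 2000 UMIs, and shares of a gene pair from all UMIs. With 1 library per group no p-value can be given. The ratio step was tested on simulated data. Of the pathway list, those called in macrophages with at least 100 UMIs (up to 5 per direction) and 13 set genes are named, except 1 gene that is not reported here, beside the 8 genes most like the members among those of mean CPM of at least 20. The shorter interferon element was added to the motif search after the data were seen. Protein sequences were not analysed here.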

Additional observations from a re-analysis of the deposited data

How the results depend on the processing

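Under up to 14 other settings per class the median log2 ratio of the 10 genes stayed below 0 in every broad class: -0.54 to -0.41 in Ptprc-low cells, -0.43 to -0.24 in dendritic cells, -0.27 to -0.21 in macrophages, -0.24 to -0.11 in monocytes, -0.23 to -0.11 in T cells and -0.29 to -0.10 in NK cells. The reported NK cell median has a counting half-width of 0.33, so its sign is not resolved. The values beyond counting error of the reported ones were -0.24 in dendritic cells (reported -0.36) when barcodes with markers of another class were kept, and -0.21 in macrophages (reported -0.26) when ratios were centred on the median of all genes; the cause was not tested for the former, and the latter subtracts that median by construction. Settings with equal mixes of depth bins, shared barcodes, low-UMI mixtures, or equal mixes of dendritic subsets or of Ptprc-low clusters were chosen after the data were seen.

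Of 2078 single-gene ratios under other settings, 1944 moved by no more than counting error and 15 crossed 1 by more. With the marker minimum raised, Psmb10 ratio in cDC1 was 0.601 and Tap2 ratio in other T cells 1.01. With barcodes of other classes kept, H2-K1 ratio in cDC1 was 1.04, Nlrc5 ratio in cDC1 0.685, Psmb10 ratio in cDC2 1.03, Tap1 ratio in plasmacytoid DC 0.950, Tap2 ratio in plasmacytoid DC 1.66 and Psmb9 ratio in plasmacytoid DC 1.15. With thinned cells, Tap2 ratio in plasmacytoid DC was 1.63, Nlrc5 ratio in cycling macrophages 0.807 and Nlrc5 ratio in Retnla Ear2 Lyz1 macrophages 0.861. With Leiden clusters as classes, Tap1 ratio in plasmacytoid DC was 0.807, Tap2 ratio in plasmacytoid DC 1.99, Psmb8 ratio in plasmacytoid DC 1.12 and Psmb9 ratio in plasmacytoid DC 1.10. The ratio of the share of dendritic cells with a Psmb10 UMI was 1.06 without thinning. The cause was not tested. The ratio of Nlrc5 in NK cells, 1.87, was 1.16 with barcodes of other classes kept and 1.22 with Leiden clusters. No paired analysis was possible because each group has 1 library. Depth limits Tap2 and Nlrc5 most in NK cells and in cDC1 and plasmacytoid cells, and without replicate libraries the spread between mice is unknown.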
